A study of Rattus norvegicus with 9 samples.

Results

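Heat shock proteins and their DnaJ partners (J proteins) were taken as every gene in the deposited table whose symbol begins with Hspa, Hspb, Hspd, Hspe, Hsph, Dnaja, Dnajb or Dnajc followed by a digit, or with Hsp90. The rule found 71 genes of 21923, and 63 of them had enough counts to be tested among 12364 tested genes. They were measured by poly(A) RNA sequencing in rat adipose-derived stromal cells, adherent mesenchymal cells isolated by collagenase digestion of the inguinal fat of GFP-transgenic rats. Con libraries held cells at passage 4. Vitro libraries held passage 4 cells that stayed in an incubator in ordinary culture until the Vivo cells were taken. Vivo libraries held passage 4 cells put into the fat of nude mice, which lack T cells, and recovered after 7 days. Each group had 3 libraries, all cells had gone through the same collagenase isolation and culture, and the labels do not say how Vivo cells were recovered, nor whether the 3 libraries of each group had separate animals or cultures behind them. The p-values therefore measure the spread between libraries, which may be technical.

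Hsp70 proteins (Hspa genes) bind unfolded stretches of protein and release them in a cycle driven by ATP. J proteins bring clients to Hsp70 and switch on its ATPase, and Hsp110 proteins (Hsph1, Hspa4, Hspa4l) exchange its nucleotide. Hsp90 completes the folding of kinases and receptors, Hsp60 (Hspd1) is the folding chamber of mitochondria, and small heat shock proteins (Hspb genes) hold denatured clients without ATP. Heat shock factor 1 (Hsf1) raises a subset of these genes under proteotoxic stress, the unfolded protein response raises those of the endoplasmic reticulum (ER), and the remainder are expressed steadily. The members were sorted on textbook knowledge into 10 stress-inducible genes, 9 constitutive cytosolic Hsp70, Hsp110 and Hsp90 genes, 8 genes of the ER lumen, 8 of mitochondria, 6 further small heat shock proteins and 30 further J proteins.

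Library totals lay between 17484607 and 18355242 counts. Values below are CPM, the count divided by library total and scaled to a common size, after TMM scaling, which allows for differences in composition, and are given as mean ± SD over n = 3 libraries. Fold changes are on the log2 scale ± SE, with adjusted p-values from edgeR's quasi-likelihood test over all 12364 genes. Vivo replicate 3 was unlike the other 2 libraries of its group: its departure from their mean fell with gene length, at Spearman's rho = -0.47 over the 63 tested members and -0.52 over 12340 genes, which share one library and are not independent. Markers of other cell types were mixed. Of 10 macrophage markers 3 had enough counts to be tested, and none passed in either comparison. The sum of all 10 was 21.9 to 25.4 CPM in Con, 22.4 to 27.6 in Vitro and 27.1 to 32.6 in Vivo, most of it Cd14. Csf1r, 1 of the 3 tested, had 1.62 ± 0.423 CPM in Con, 2.00 ± 1.08 in Vitro and 4.25 ± 0.725 in Vivo. Its change over Con was 1.39 ± 0.39 (adjusted p = 0.053). Tyrobp had 8, 0 and 2 counts in the Vivo libraries and none in the cultured ones. Ptprc and Adgre1 had at most 1 count in a Vivo library. Of 8 endothelial markers 3 were tested. Kdr rose from 1.14 ± 0.433 CPM in Con and 1.34 ± 0.0519 in Vitro to 14.8 ± 2.66 in Vivo (3.69 ± 0.30 over Con, adjusted p = 2.3e-04). The sum of all 8 was 36.6 to 47.0, 32.7 to 38.3 and 44.0 to 57.6 CPM in Con, Vitro and Vivo. Egfl7 was the most abundant at 27.4 ± 6.88 in Vivo, and Cldn5 was at 0 throughout. Of 6 skeletal muscle markers found, Des rose over Con by 1.49 ± 0.30 (adjusted p = 0.017) and Acta1 fell by 2.29 ± 0.36 (adjusted p = 0.0052), their sum was 18.2 to 23.6, 23.5 to 26.8 and 15.7 to 20.3 CPM, and Ckm had at most 1 count. The 6 adipocyte markers summed to at most 1.47 CPM in any library, with Retn at 0. The part of other cells in the results below was not tested. In bulk RNA, fewer cells with a transcript cannot be told apart from less transcript per cell.

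Some chaperone genes were higher in the cells recovered from host fat, and others were lower. Against Con, 7 of 63 tested members rose and 2 fell, which is 14.3% of them against 9.73% of all genes tested (5.17% rose and 4.56% fell). The members that rose were Hspd1, Hspa1a, Hsp90aa1, Hspa14, Dnajc2, Dnajc3 and Dnajc9, and those that fell were Hsph1 and Hspa4l. Against Vitro, 4 members rose (Hspa5, Hsp90b1, Dnajc3, Dnajc25) and 4 fell (Hsph1, Hspa4l, Hspa2, Dnajb4), 12.7% of the members against 10.9% of all genes (5.38% rose and 5.52% fell). Both comparisons use the same Vivo libraries. Dnajc3 alone rose in both, while Hsph1 and Hspa4l fell in both. For members that rose over Con, Vitro differed from Con by 0.46 (Hspd1), 0.12 (Hspa1a), 0.38 (Hsp90aa1) and 0.35 (Hspa14). The differences were 0.25 for Dnajc2, -0.07 for Dnajc3 and 0.47 for Dnajc9, and none of these changes passed (adjusted p from 0.38 to 0.89). The median change of the members was 0.05 against Con and 0.02 against Vitro, beside 0.01 and 0.02 over all genes tested, and 47 of the 63 members differed from Con by less than 0.5 on the log2 scale, as did 8650 of all 12364 genes.

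Those counts depended on single libraries. Against Con the 9 calls became 15 when Vivo replicate 3 was left out, 3 when replicate 1 of that group was and 2 when replicate 2 was. They became 1 without Con replicate 1, 4 without Con replicate 2 and 0 without Con replicate 3, and 5, 2 and 2 without Vitro replicates 1, 2 and 3, which share the estimate of spread. Against Vitro the 8 calls became 5 without Vivo replicate 1, 4 without Vitro replicate 2 and 3 without Vitro replicate 3. Hsph1 was called in every one of the 17 alternative fits against Vitro and in 16 of 17 against Con, the exception being the fit without Con replicate 3 (adjusted p = 0.055).

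**Figure D1:**
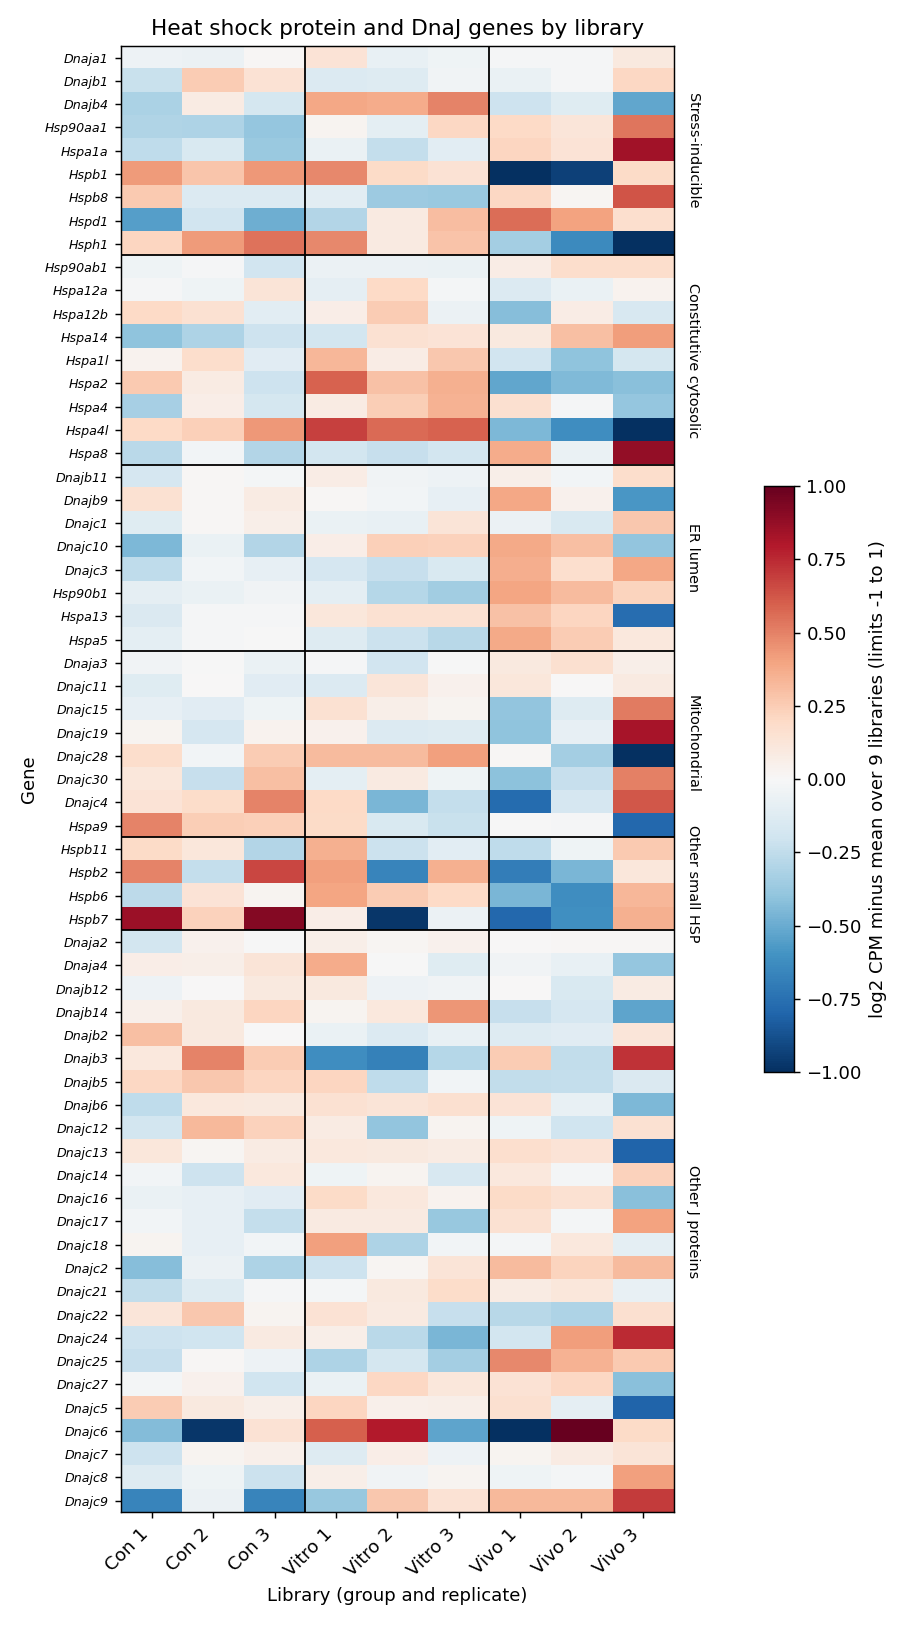
Colour gives the log2 CPM of each of the 63 tested members (rows, by class) in each of the 9 libraries (columns), minus the gene's mean over the 9 libraries, with colours limited to -1 and 1. Hsph1 and Hspa4l are lowest in the 3 Vivo libraries, Hspa5, Hsp90b1 and Dnajc3 are highest there, and Vivo replicate 3 differs from Vivo replicates 1 and 2 for members such as Hspb1 and Dnajc13.

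Among the stress-inducible genes, members called against Con changed in opposite directions, while those called against Vitro all fell. Of 9 tested genes 3 rose and 1 fell against Con, beside 5.17% and 4.56% of all genes. None rose and 2 fell against Vitro, beside 5.38% and 5.52% of all genes. The summed level of all 10 was 1367 ± 54.7 CPM in Con, 1416 ± 65.5 in Vitro and 1354 ± 72.6 in Vivo. That sum includes the counts of Hspa1a, Hspa1b and Hsp90aa1, which are uncertain where copies share reads. Hsph1 (ENSRNOG00000000902), the inducible Hsp110 that recharges Hsp70, stood at 306, 354 and 384 CPM in Con, at 368, 281 and 321 in Vitro and at 208, 169.7 and 126 in Vivo. Every Vivo library was below every cultured library. The fall was -1.05 ± 0.19 against Con (adjusted p = 0.011) and -0.94 ± 0.19 against Vitro (adjusted p = 0.013), and Vitro and Con differed by -0.11 ± 0.19 (adjusted p = 0.90).

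Hspd1 (ENSRNOG00000014525), the mitochondrial Hsp60, went the other way, with 201, 256 and 209 CPM in Con, 239, 312 and 363 in Vitro and 431, 388 and 330.3 in Vivo. Vivo lay above Con throughout, at 0.79 ± 0.18 (adjusted p = 0.028), while Vivo replicate 3 lay below Vitro replicate 3 and the difference from Vitro was 0.33 ± 0.18 (adjusted p = 0.26). Leaving out replicate 1 of either group, Con replicate 3 or replicate 2 of Vivo ended the call against Con (adjusted p up to 0.12). Its partner Hspe1 was not analysed here.

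Hspa1a (ENSRNOG00000061099), the classical heat-induced Hsp70, stood at 71.0, 75.9 and 65.3 CPM in Con, 80.6, 71.8 and 78.7 in Vitro and 98.1, 93.1 and 151 in Vivo. The Vivo libraries were above all cultured ones, and replicate 3 was well above the other two. The change was 0.69 ± 0.18 against Con (adjusted p = 0.043) and 0.57 ± 0.18 against Vitro (adjusted p = 0.078). Without Vivo replicate 3 the rise over Con was 0.41 ± 0.09 (adjusted p = 0.023), and 11 of the 17 alternative fits lost the call, among them those without any 1 Con library, any 1 Vitro library or Vivo replicate 1 (adjusted p up to 0.29). The near-identical neighbour Hspa1b (ENSRNOG00000050647) was listed with no count in any library, yet the authors' FPKM for it was 0.958 ± 0.248 in Con, 0.947 ± 0.0972 in Vitro and 1.26 ± 0.786 in Vivo. Counts and FPKM therefore treated this gene differently, and how reads common to the pair were assigned is not given in the sources used here. The count and the authors' FPKM of Hspa1a, divided to give a length, disagreed by 1.54 times between libraries, against 1.07 times for Hspa5.

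Hsp90aa1 (ENSRNOG00000059714), the inducible cytosolic Hsp90, had 9.49, 9.45 and 8.92 CPM in Con, 11.9, 10.9 and 13.5 in Vitro and 13.4, 12.7 and 16.9 in Vivo. The rise over Con was 0.62 ± 0.17 (adjusted p = 0.047), a call that 12 of 17 alternatives lost, those without any 1 of the 9 libraries included (adjusted p up to 0.17), and that over Vitro was 0.24 ± 0.17 (adjusted p = 0.37). A further row described as heat shock protein HSP 90-alpha (LOC103692716) held 1.06 ± 0.259 CPM in Con and 2.22 ± 0.306 in Vivo, so the level of Hsp90aa1 is uncertain where copies share reads.

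Hsph1 was the only inducible member that passed in both comparisons. Dnajb1, the J protein that works with Hspa1a and a standard reporter of Hsf1, had 105, 146 and 135 CPM in Con and 117, 121 and 141 in Vivo, a difference of -0.02 ± 0.15 (adjusted p = 0.93). Dnaja1, another cytosolic J protein, differed by 0.06 ± 0.11 (adjusted p = 0.77). Dnajb4 fell against Vitro by 0.69 ± 0.15 on the log2 scale (adjusted p = 0.017). Its Vitro libraries, at 89.6, 88.4 and 96.9 CPM, were above both the Con libraries (55.1, 72.4 and 60.6) and the Vivo libraries (59.5, 63.1 and 47.8), and the call was lost without Vitro replicate 2 or Vitro replicate 3 (adjusted p up to 0.07).

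Hspb1, the most studied small heat shock protein, which also binds actin filaments, had 174, 157 and 175 CPM in Con, 181, 148 and 144 in Vitro and 55.8, 68.0 and 148 in Vivo. Vivo replicates 1 and 2 were far below every cultured library, whereas Vivo replicate 3 reached the Vitro range. The difference from Con was -0.90 ± 0.31 (adjusted p = 0.096), and without Vivo replicate 3 it was -1.47 ± 0.14 (adjusted p = 8.1e-04). Hspb1 had the shortest implied length of the tested members, the end of the range where Vivo replicate 3 departed most upward. Hspb8, which works with Bag3 in selective autophagy, stood at 155 ± 25.8 CPM in Con, 127 ± 13.7 in Vitro and 190.4 ± 42.5 in Vivo and passed in neither comparison (adjusted p = 0.33 and 0.074).

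**Figure D2:**
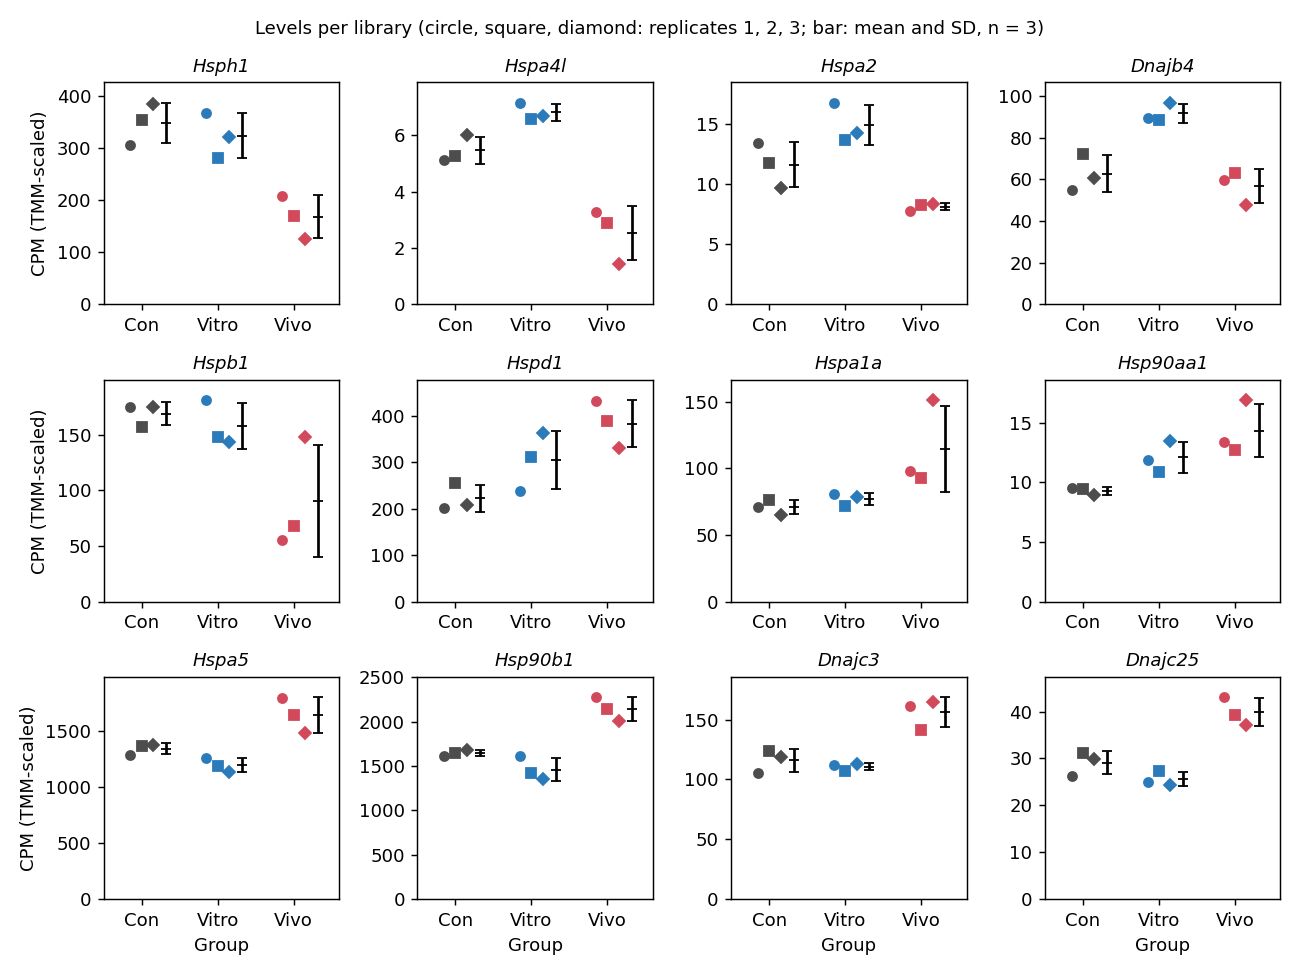
Each panel gives the TMM-scaled CPM of 1 gene in the 9 libraries (circle, square and diamond for replicates 1, 2 and 3, bar for mean and SD) by group, on an axis from 0. The Vivo points of Hsph1, Hspa4l and Hspa2 lie below all cultured points, those of Hspa5, Hsp90b1, Dnajc3 and Dnajc25 above them, and the Vivo points of Hspb1 are split between 55.8, 68.0 and 148 CPM.

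Immediate early genes, which cells transcribe within minutes of stimulation, moved with the Vivo group as well. Of 21 measured immediate early genes 15 rose against Con and 17 against Vitro, beside 5.17% and 5.38% of all genes tested. Their summed level was 1200.4 to 1559 CPM in Con, 949.5 to 979.9 in Vitro and 2649 to 4874 in Vivo. Immediate early genes and inducible heat shock genes are both known to respond to enzymatic dissociation of tissue. The part of cell recovery in the levels of Hspa1a or Hspd1 was not tested, and recovery and residence in host fat cannot be told apart in this design.

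The heat shock element to which Hsf1 binds was looked for in RefSeq promoter windows, which run from 250 bases before to 50 bases after the annotated gene start in GRCr8, a later assembly than the one used for the counts. The core, GAANNTTC with N for any base, has the same form on both strands. It occurred in the windows of 6 of 7 stress-inducible members with an entry, against 6 of the 49 other members with one and 8.59% of all 33469 windows. The stress-inducible member whose window held no core was Hspa1a, which says nothing of looser forms or of sites outside that window. The class was sorted on textbook knowledge of induction, so these shares describe the class and test nothing. The longer form, in which the core is followed after 2 further bases by GAA, was searched on both strands. It contains the core and occurred in 0.798% of all windows. The windows of Hsph1, which fell, Hspd1, which rose over Con, and Hspb1, which passed in neither comparison, are printed here as examples of windows that hold the core, with matches in capitals:
Hsph1 (GRCr8 chr12:10427118-10427417, plus strand): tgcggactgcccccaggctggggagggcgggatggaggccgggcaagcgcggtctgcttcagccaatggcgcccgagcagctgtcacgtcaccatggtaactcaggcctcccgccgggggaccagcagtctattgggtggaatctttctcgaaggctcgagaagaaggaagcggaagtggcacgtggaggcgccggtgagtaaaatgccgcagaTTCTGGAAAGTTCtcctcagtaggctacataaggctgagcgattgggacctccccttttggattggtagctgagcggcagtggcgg
Hspd1 (GRCr8 chr9:64083988-64084287, minus strand): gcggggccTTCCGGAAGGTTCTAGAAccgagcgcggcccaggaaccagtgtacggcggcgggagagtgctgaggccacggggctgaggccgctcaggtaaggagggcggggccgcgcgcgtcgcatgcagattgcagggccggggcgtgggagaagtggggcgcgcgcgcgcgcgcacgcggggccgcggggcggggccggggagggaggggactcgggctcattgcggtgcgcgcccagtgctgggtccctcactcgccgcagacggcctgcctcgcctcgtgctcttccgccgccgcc
Hspb1 (GRCr8 chr12:26432252-26432551, minus strand): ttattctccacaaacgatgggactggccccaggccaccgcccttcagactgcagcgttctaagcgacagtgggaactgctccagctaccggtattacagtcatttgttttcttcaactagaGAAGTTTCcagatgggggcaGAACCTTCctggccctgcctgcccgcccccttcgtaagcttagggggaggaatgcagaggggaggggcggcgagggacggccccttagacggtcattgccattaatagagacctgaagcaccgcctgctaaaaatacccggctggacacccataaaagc
The longer form began at -36 in Hsph1, where the gene start is 0, and overlapping matches to it on both strands began at -242 and -237 in Hspd1. Hspb1 held cores at -129 and -109 and no match to the longer form. A match is a description of the letters and not of binding or of a cause.

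Among the constitutive cytosolic chaperones, the abundant Hsp90ab1 moved little and the scarcer Hspa4l and Hspa2 were lower in Vivo. Of 9 tested members 1 rose and 1 fell against Con, beside 5.17% and 4.56% of all genes. None rose and 2 fell against Vitro, beside 5.38% and 5.52% of all genes. Hsp90ab1, the steady cytosolic Hsp90, had 1329.9 ± 85.8 CPM in Con, 1347 ± 1.83 in Vitro and 1551 ± 63.8 in Vivo. Its Vivo libraries lay above all others, but the differences, 0.22 ± 0.12 and 0.20 ± 0.12, did not pass (adjusted p = 0.25 and 0.28).

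Hspa4l (ENSRNOG00000010819), an Hsp110 relative, had 5.12, 5.26 and 6.02 CPM in Con, 7.16, 6.59 and 6.69 in Vitro and 3.26, 2.89 and 1.43 in Vivo. Vivo libraries were below all cultured libraries, by -1.11 ± 0.29 against Con (adjusted p = 0.041) and -1.43 ± 0.29 against Vitro (adjusted p = 0.013). All 17 alternatives kept the call against Vitro and 8 kept that against Con, which was lost without any 1 Con or Vitro library or Vivo replicate 2 (adjusted p up to 0.15). On the log2(FPKM + 1) scale, which understates changes of low genes, the differences were -0.42 and -0.58. The third Hsp110, Hspa4, had 273 ± 38.7 CPM in Con, 353 ± 32.5 in Vitro and 288 ± 54.2 in Vivo, with differences of 0.08 ± 0.17 and -0.29 ± 0.17 (adjusted p = 0.80 and 0.29).

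Hspa2, an Hsp70 best known from spermatocytes, had 13.4, 11.8 and 9.67 CPM in Con, 16.8, 13.7 and 14.3 in Vitro and 7.77, 8.23 and 8.34 in Vivo. The Vivo libraries did not overlap with either cultured group, and the fall was -0.88 ± 0.17 against Vitro (adjusted p = 0.012, called in all 17 alternatives) and -0.52 ± 0.17 against Con (adjusted p = 0.089). Hspa14, which belongs to the ribosome-associated chaperones, rose over Con from 26.9 ± 1.77 to 40.1 ± 4.39 CPM, with Vitro between at 34.1 ± 4.35. That change was 0.58 ± 0.14 (adjusted p = 0.036). It was lost in 7 alternatives, among them those without any 1 of the Con libraries, Vitro replicates 2 or 3, or Vivo replicate 2 (adjusted p up to 0.14).

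Hspa8, the constitutive Hsp70 that is usually among the most abundant cellular proteins, was counted at only 5.96 ± 0.626 CPM in Con, 5.93 ± 0.128 in Vitro and 9.27 ± 3.04 in Vivo. Its differences of 0.64 ± 0.24 from each cultured group did not pass (adjusted p = 0.13 and 0.12). Per length, on the authors' FPKM scale, it stood at 1.70 in Con, against 331 for Hspa5 and 268 for Hsp90ab1. A row described as similar to heat shock protein 8 (LOC680121) held 26.4 ± 2.82 CPM in Con, more than Hspa8 itself. Reads shared with such copies may have been split or dropped by the counting, so the counts of Hspa8 and Hsp90aa1 may not give the levels of those transcripts. Both genes were still tested, and both are included in the counts of calls and in the class sums.

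In the ER lumen the most abundant chaperones, Hspa5 and Hsp90b1, stood higher in Vivo than in any cultured library. The 8 genes took 43.5% of the members' CPM in Con. That share is not corrected for gene length, and its total includes Hspa8, Hsp90aa1 and Hspa1b, whose counts are uncertain. The sum of the 8 genes was 3496, 3701 and 3706 CPM in Con, 3576, 3326 and 3218 in Vitro and 4905, 4562 and 4163 in Vivo. The 3 Vivo sums were above all cultured sums, and Vitro and Con overlapped. Against Vitro 3 of the 8 rose and none fell, beside 5.38% and 5.52% of all genes. Against Con 1 rose and none fell, beside 5.17% and 4.56% of all genes.

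Hspa5 (ENSRNOG00000018294), which encodes BiP, the ER Hsp70 and sensor of the unfolded protein response, had 1291, 1374 and 1376 CPM in Con, 1263, 1190.0 and 1140.5 in Vitro and 1802, 1650.4 and 1484 in Vivo. The change was 0.46 ± 0.12 against Vitro (adjusted p = 0.043) and 0.29 ± 0.12 against Con (adjusted p = 0.17, and 0.043 without Vivo replicate 3). The call against Vitro was lost in 11 of 17 alternatives, among them those leaving out any 1 library other than Vivo replicate 3, with adjusted p up to 0.15.

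Hsp90b1 (ENSRNOG00000026963), the ER Hsp90 that folds integrins and Toll-like receptors, had 1618, 1643 and 1680.2 CPM in Con, 1608, 1418 and 1352 in Vitro and 2272, 2144 and 2012 in Vivo. It rose by 0.55 ± 0.12 over Vitro (adjusted p = 0.020) and stood 0.38 ± 0.12 above Con (adjusted p = 0.083, and 0.032 without Vivo replicate 3). Leaving out Vitro replicate 2 or 3, or replicate 1 or 2 of Vivo, ended the call against Vitro (adjusted p up to 0.095).

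Dnajc3 (ENSRNOG00000010352), a BiP cochaperone also named P58IPK, had 105, 124 and 119 CPM in Con, 112, 107 and 113 in Vitro and 162, 142 and 165 in Vivo. It passed in both comparisons, at 0.43 ± 0.12 over Con (adjusted p = 0.049) and 0.49 ± 0.12 over Vitro (adjusted p = 0.026). Of the 17 alternatives 5 kept the first call and 10 the second, and leaving out any 1 library other than Vivo replicate 3 ended the first, with adjusted p up to 0.19. The second was lost without Con replicate 3, any 1 Vitro library or Vivo replicate 1 (adjusted p up to 0.11). The other ER members gave no calls: Dnajb11 differed from Vitro by 0.08, Dnajb9 by 0.04, Dnajc1 by 0.03, Dnajc10 by -0.04 and Hspa13 by -0.15. Dnajc10, a disulfide reductase, and Hspa13 were both lower in Vivo replicate 3, where Hspa13 had 55.2 CPM against 115 and 108 in the other Vivo libraries.

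The 3 ER genes that rose over Vitro were also the 3 members whose promoter window held an exact ER stress element, searched on both strands as CCAAT and CCACG with 9 bases between them. The element is the site through which the unfolded protein response factor ATF6 acts together with NF-Y. It occurred in 3 of 56 members with an entry and in 0.0657% of all windows. Their windows are printed here with the matches in capitals:
Hspa5 (GRCr8 chr3:38452766-38453065, plus strand): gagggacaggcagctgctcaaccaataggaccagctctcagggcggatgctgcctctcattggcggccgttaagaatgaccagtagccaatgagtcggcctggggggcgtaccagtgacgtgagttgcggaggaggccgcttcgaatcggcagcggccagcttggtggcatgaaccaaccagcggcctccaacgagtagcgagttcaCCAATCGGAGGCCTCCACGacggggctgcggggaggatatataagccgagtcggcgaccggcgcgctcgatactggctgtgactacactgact
Hsp90b1 (GRCr8 chr7:23012244-23012543, minus strand): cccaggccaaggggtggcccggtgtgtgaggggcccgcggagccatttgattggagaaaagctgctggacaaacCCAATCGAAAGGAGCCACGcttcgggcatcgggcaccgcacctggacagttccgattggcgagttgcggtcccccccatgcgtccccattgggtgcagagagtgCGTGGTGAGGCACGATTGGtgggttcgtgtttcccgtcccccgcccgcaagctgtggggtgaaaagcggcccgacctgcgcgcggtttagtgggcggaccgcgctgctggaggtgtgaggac
Dnajc3 (GRCr8 chr15:102432417-102432716, plus strand): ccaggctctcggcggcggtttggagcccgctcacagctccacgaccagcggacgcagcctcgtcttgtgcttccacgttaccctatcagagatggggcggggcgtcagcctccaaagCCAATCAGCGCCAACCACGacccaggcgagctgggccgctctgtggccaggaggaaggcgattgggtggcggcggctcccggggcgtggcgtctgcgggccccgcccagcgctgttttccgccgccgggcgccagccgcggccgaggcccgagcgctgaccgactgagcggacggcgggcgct
The element began at -43 in Hspa5 and at -133 in Dnajc3. In Hsp90b1 it began at -176 on the sense strand and at -72 on the other. The windows of the other 5 ER members did not hold these letters, which says nothing of looser forms or of sites elsewhere. Neither did that of Dnajc25, a member of another class that also rose over Vitro. Here too a match describes the letters, not binding or a cause. The 3 genes were picked by calls in these data, so their overlap with the matches tests nothing. The part of the unfolded protein response in the levels of these 3 genes was not tested.

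**Figure D3:**
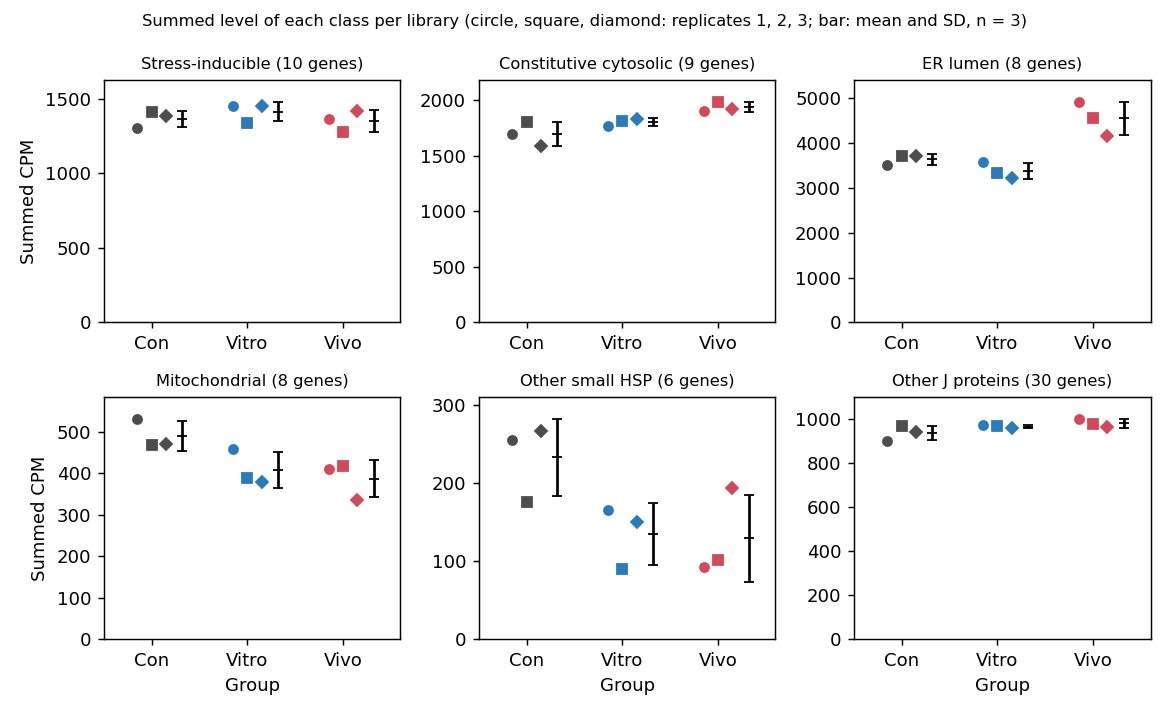
Points give the summed TMM-scaled CPM of each class in the 9 libraries (circle, square and diamond for replicates 1, 2 and 3, bar for mean and SD), by group, on axes from 0. The ER lumen sum is 4163 to 4905 CPM in Vivo and at most 3706 in the cultured libraries, while the stress-inducible sums overlap between all 3 groups.

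Mitochondrial chaperones and J proteins gave no calls among 8 tested members in either comparison with Vivo. The most abundant, Hspa9 or mortalin, which pulls imported proteins into the matrix, had 398, 335 and 332 CPM in Con, 322, 253 and 241 in Vitro and 280.4, 279.8 and 164 in Vivo. Its difference from Con was -0.56 ± 0.21 (adjusted p = 0.13) and that from Vitro was -0.17 ± 0.21 (adjusted p = 0.63), whereas the Hsp60 gene Hspd1 of the same compartment rose over Con. Dnajc19, a J protein of the import motor, had 14.5, 18.1 and 34.0 CPM in the Vivo libraries, and passed in neither comparison (adjusted p = 0.59 and 0.52).

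The further small heat shock proteins are mostly known from muscle, and 4 of 6 were tested with no call. Hspb7, which is prominent in heart, spread widely between libraries of each group, at 232, 150.3 and 242 CPM in Con, 134, 65.2 and 123 in Vitro and 74.3, 83.9 and 164 in Vivo. Both later groups had a mean of 107 CPM, and the difference from Con was -0.95 ± 0.35 for each (adjusted p = 0.12 for Vivo and 0.34 for Vitro). Hspb6 stood at 14.8 ± 2.06, 18.4 ± 1.28 and 13.2 ± 4.98 CPM in Con, Vitro and Vivo. Hspb3 had no count, and Hspb9 had 4 counts in all.

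Of the 30 further J proteins 25 were tested, and those that changed were Dnajc2, Dnajc9 and Dnajc25. Against Con 2 rose and none fell, beside 5.17% and 4.56% of all genes. Against Vitro 1 rose and none fell, beside 5.38% and 5.52% of all genes. Dnajc9, which handles histones H3 and H4 during chromatin assembly, had 34.9, 52.9 and 34.9 CPM in Con, 42.5, 66.7 and 61.1 in Vitro and 69.2, 69.1 and 89.7 in Vivo, and rose over Con by 0.89 ± 0.22 (adjusted p = 0.035). That call was lost in 8 alternatives, among them those without Con replicate 1, Con replicate 3, Vitro replicate 2, Vitro replicate 3 or any 1 Vivo library, where adjusted p reached 0.15.

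Dnajc2, a ribosome-bound J protein that partners Hspa14, had 28.3, 36.5 and 30.7 CPM in Con and 47.5, 44.5 and 47.4 in Vivo, a rise of 0.55 ± 0.14 (adjusted p = 0.041). Both genes of this pair passed against Con, and neither passed against Vitro (adjusted p = 0.21 for Dnajc2 and 0.32 for Hspa14). The Dnajc2 call was lost in 9 alternatives, among them those without Con replicate 1 or 3, Vitro replicate 2 or 3, or replicate 1 or 2 of Vivo (adjusted p up to 0.16). Dnajc25, a transmembrane J protein, had 26.3, 31.2 and 29.9 CPM in Con, 25.0, 27.3 and 24.4 in Vitro and 43.0, 39.3 and 37.1 in Vivo. All Vivo libraries were above all others, at 0.64 ± 0.13 over Vitro (adjusted p = 0.012, lost only without Vitro replicate 3 among 17 alternatives, at 0.059) and 0.45 ± 0.13 over Con (adjusted p = 0.053).

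The remaining members gave no calls or were hardly counted. Dnaja2, Dnajb12 and Dnajc7, general cytosolic or ER-membrane J proteins, differed from Con by 0.05, -0.04 and 0.11. Dnajc13, an endosomal J protein with the longest implied transcript among the tested members, stood at 128 and 125 CPM in Vivo replicates 1 and 2 and 65.3 in replicate 3. Dnajb7, Dnajb8, Dnajc5b and Dnajc5g, together with Hspb3, had no count in any library and an FPKM of 0, a result that permits a level of up to 0.175 CPM in each, and Dnajb13 had 1 count.

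**Figure D4:**
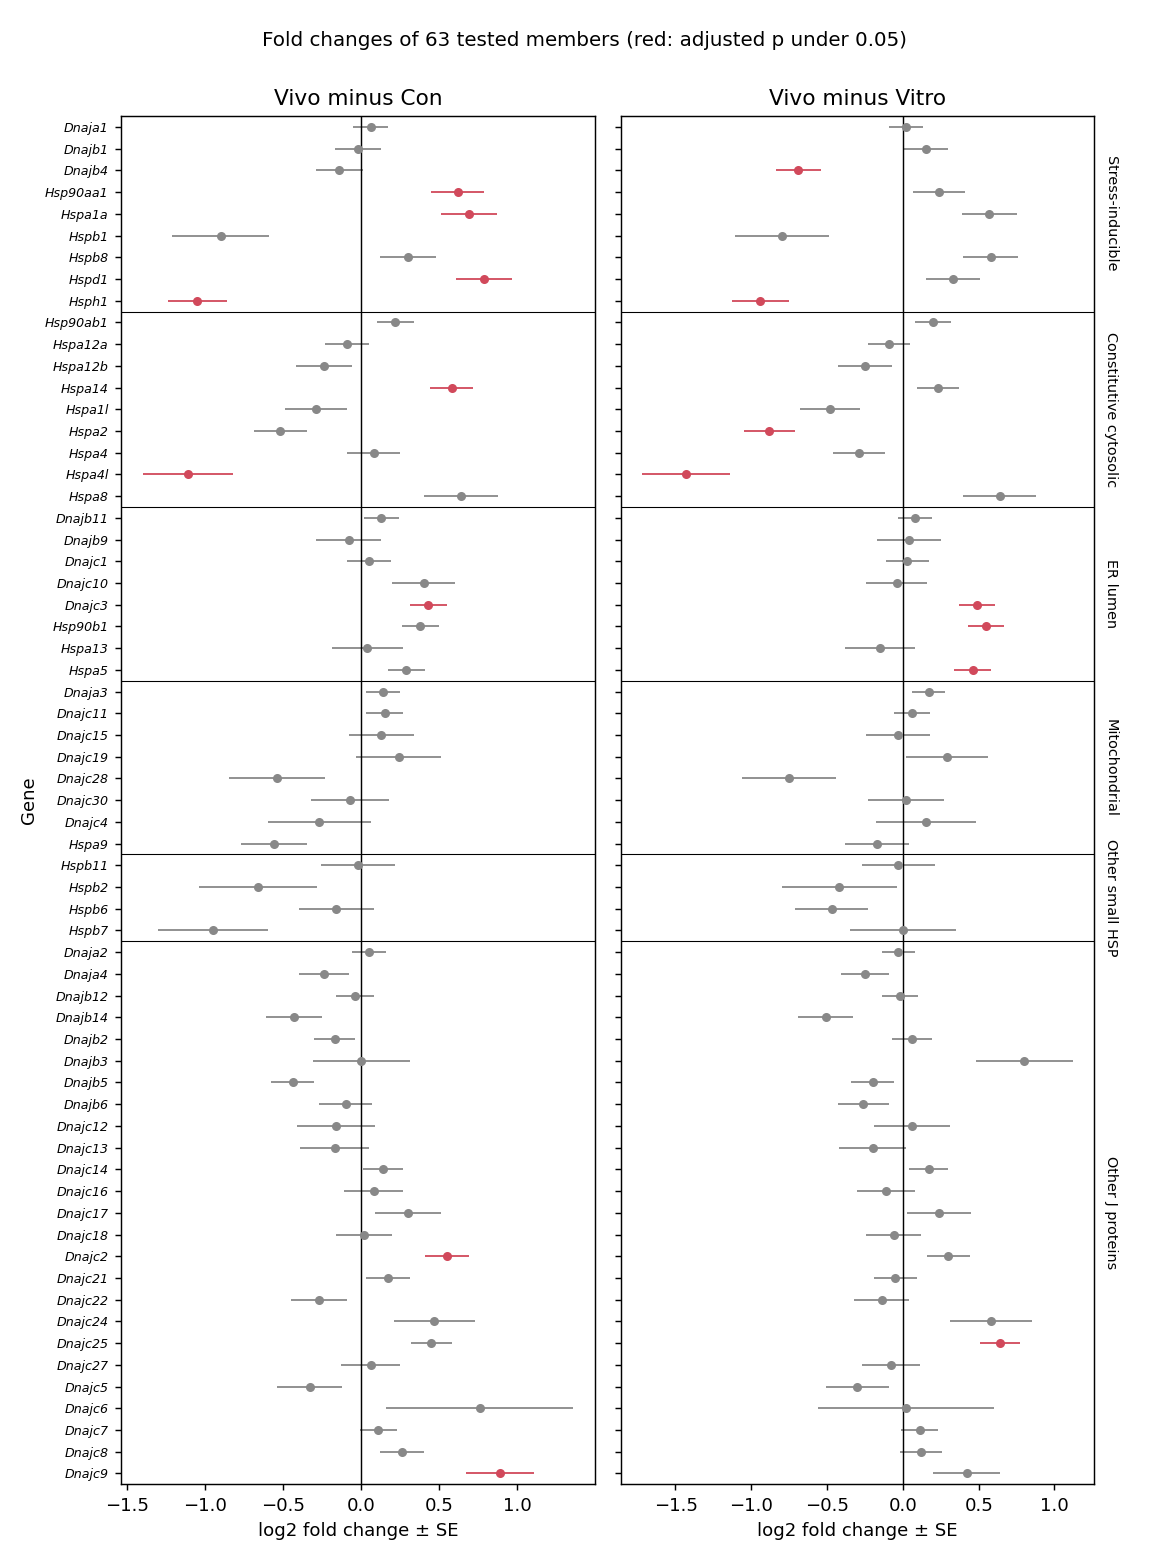
Points give the log2 fold change ± SE of each of the 63 tested members, by class, for Vivo minus Con (left) and Vivo minus Vitro (right), and red marks an adjusted p under 0.05. Against Con, red points lie on both sides of 0 among the stress-inducible genes, from -1.05 for Hsph1 to 0.79 for Hspd1. Against Vitro, the red points of that class lie left of 0. Red points of the ER lumen lie right of 0.

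Vitro and Con were compared to show what continued culture did without a host. For Vitro against Con edgeR called none of the 63 members, and 0.0324% of all genes (0.00809% higher and 0.0243% lower). Of the members 7 had an unadjusted p under 0.05, as did 1405 of all 12364 genes. DESeq2 called 1 member (Dnajb4, higher in Vitro) and 305 of all genes. With sample quality weights limma called 13 members and 2690 of all genes. The 3 Vitro libraries did not overlap with Con for 33.3% of the members, beside 21.4% of all genes tested, with 14 members higher and 7 lower (11.1% and 10.3% of all genes). Vivo did not overlap with Con for 38.1% of the members and 33.5% of all genes (17.3% higher and 16.1% lower). Vivo did not overlap with Vitro for 31.7% of the members and 35.2% of all genes (17.7% higher and 17.5% lower). Dnajb4 was 0.55 ± 0.15 above Con in Vitro (adjusted p = 0.23), and Hspa9 differed by -0.38 ± 0.21 (adjusted p = 0.54).

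Beyond the members, 44 of 47 further chaperone genes were tested. Of these 5 rose and 1 fell against Con, beside 9.73% of all genes called (5.17% rose and 4.56% fell). Against Vitro 1 rose and 1 fell, beside 10.9% of all genes (5.38% rose and 5.52% fell). The median change of the 44 was 0.32 against Con and 0.20 against Vitro, beside 0.01 and 0.02 over all genes tested. Those that rose over Con were Ahsa1, which stimulates the Hsp90 ATPase, its relative Ahsa2 and the Hsp90 immunophilin Fkbp4. The mitochondrial Hsp90 Trap1 and St13, which stabilises client-bound Hsp70, rose over Con as well. Ahsa1 rose from 77.3 ± 8.75 to 124 ± 23.9 CPM (0.69 ± 0.15, adjusted p = 0.024), and Ahsa2 from 23.1 ± 3.38 to 38.7 ± 5.21 (0.75 ± 0.16, adjusted p = 0.023). Both calls were lost without Con replicate 1 or Con replicate 3 and in the fit to the 2 groups alone (adjusted p up to 0.11). Fkbp4, Trap1 and St13 rose by 0.63 ± 0.16, 0.57 ± 0.15 and 0.43 ± 0.11 (adjusted p = 0.034, 0.047 and 0.041), and 7, 11 and 10 of 17 alternatives lost these calls, most of them fits without 1 Con, Vitro or Vivo library (adjusted p up to 0.18). Against Vitro Ahsa2 alone rose, by 0.93 ± 0.16 (adjusted p = 0.0067).

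Cryab, the small heat shock protein alphaB-crystallin, was the further gene that fell, and its 3 Vivo libraries held 57.1, 93.2 and 158 CPM against 300.5, 319.6 and 312 in Con and 352, 296 and 406 in Vitro. The fall was -1.60 ± 0.30 against Con (adjusted p = 0.013, and 0.051 without Con replicate 3) and -1.78 ± 0.31 against Vitro (adjusted p = 0.0060). Like Hspb1, it was highest among the Vivo libraries in replicate 3. The level of Hsf1 itself was 33.6 ± 1.85 CPM in Con, 33.0 ± 2.94 in Vitro and 40.2 ± 6.43 in Vivo (adjusted p = 0.29 against Con). The 8 subunits of the cytosolic folding chamber CCT lay 0.05 to 0.47 above Con, and none passed (adjusted p from 0.071 to 0.78). Hyou1, the Hsp110 of the ER, had 227, 276 and 249 CPM in Con, 267, 263 and 232 in Vitro and 364, 352 and 310.2 in Vivo, above Con by 0.45 ± 0.13 (adjusted p = 0.055) and above Vitro by 0.43 ± 0.13 (adjusted p = 0.061).

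**Figure D5:**
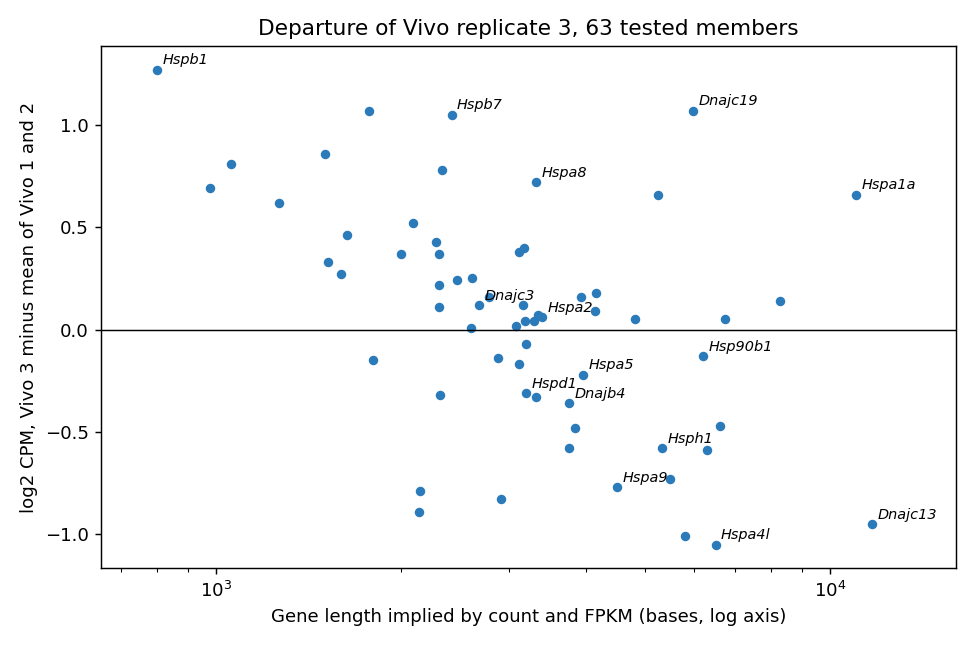
Each point is 1 of the 63 tested members, with the gene length implied by its count and FPKM (bases, log axis) on the x axis and the log2 CPM of Vivo replicate 3 minus the mean of Vivo replicates 1 and 2 on the y axis. Short members such as Hspb1 lie above 0 and long ones such as Dnajc13 and Hspa4l below it, at Spearman's rho = -0.47, while Hspa1a and Dnajc19 lie above 0 at long implied lengths. The length implied for Hspa1a ran from 8308 to 12769 bases between libraries, and that for Dnajc19 from 5221 to 7222. The places of both on the x axis are therefore uncertain.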

How the data were processed

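RNA was extracted and made into stranded poly(A) libraries, per the labels' protocols, and the submitters' processing notes name HISAT2 and Rnor_6.0. Which counter was used, with which strand setting, and which tool made FPKM is not given in the sources used here. Vivo cells came from a mouse host and the genome named is rat. The deposited table gives an unnormalised whole-number count per gene and library, and an FPKM value that the authors computed, used for implied gene length, levels per length and 1 alternative fit. Totals were 17484607 to 18355242 counts.

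The main test was edgeR 4.0.16 under R 4.3.3: filterByExpr, TMM, 1 quasi-likelihood fit of 3 groups over 9 libraries with 6 residual degrees of freedom, 3 two-sided contrasts, Benjamini-Hochberg adjustment over all tested genes and a threshold of 0.05. SE was taken as the size of the log2 change divided by the root of its F statistic. A count of 0 allows 3 counts per library, a floor that covers counting error only. The fit was tested on simulated data. Genes were named by a rule: 14 fixed names (12 of them tested), every member past the threshold, members at least 2-fold apart with no overlap, and called genes of the further chaperone list. Members outside this rule are named as examples chosen after their values were seen. Members, classes and lists were chosen with earlier results of these data known. The labels do not say that replicate numbers pair the libraries, and the main fit did not pair them. As alternatives, limma 3.58.1 and DESeq2 1.42.0 were used. Promoter windows came from RefSeq (GRCr8, another assembly), with entries for 56 of 71 members. Plots used matplotlib 3.10.9 (Python 3.11.15).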

Additional observations from a re-analysis of the deposited data

How the results depend on the processing

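Over 17 alternatives no called change of a named gene reversed, and of the 1326 repeated values 1158 kept their side of the threshold, 134 lost a call and 34 gained one. The number of members called against Con was 9. It was 5 with the replicate number as a block, 2 when just those 2 groups were fitted, 14 in DESeq2 and 20 in limma with quality weights per library, which gave Vivo replicate 3 a weight of 0.0942. Leaving out 1 library at a time gave 0 to 15, beside 341 to 1706 calls over all genes. Against Vitro the 8 calls became 5 in the fit to the 2 groups alone and 13 with sample quality weights. Leaving out 1 library gave 3 to 10. Over all genes these calls against Vitro were 1348, 861, 2852 and 661 to 1660. Of the Vitro calls against Con, 0 in edgeR, DESeq2 made 1 and sample quality weights 13, and leaving out 1 library gave 0 in every fit. Over all genes those Vitro calls were 4, 305 and 2690, and 0 to 54 on leaving out 1 library. Over all genes the Vivo calls against Con were 1203. They were 667 in the fit of 2 groups, 2046 in DESeq2 and 3458 in limma with quality weights. The cause was not tested. With the block 4 of the 9 calls against Con and 6 of the 8 against Vitro remained. Same-numbered libraries correlated in their deviations from group means at -0.01 to 0.36, with 0.36, 0.32 and 0.09 between Vitro and Con. Differently numbered libraries were not compared, so whether the numbers pair libraries is not known. Levels of Hspa8, Hsp90aa1 and Hspa1a are uncertain where copies share reads.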
